A study of Homo sapiens with 6 samples.

Results

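RNA in growing cells was compared with the same kind of RNA after it had been taken out of the cells and refolded in potassium. The comparison rests on transcripts read deeply enough on both sides, which means that the reverse transcription (RT) stops listed for a transcript, divided by its largest listed position, came to at least 1 per nucleotide in both libraries. This held for 1336 of the 15739 transcripts listed in the series. Of these, 1278 were matched to a transcript sequence, 1248 of them with a coding sequence, and stand for 1269 genes. The other 58 could not be matched and were not analysed further. Transcripts just inside the minimum were PDIA3, with 1.00 stops per nucleotide in cells and 1.20 in refolded RNA, EMC7 with 1.00 and 1.52, and GTF3A with 1.01 and 1.62. PARP1 with 0.997 and 2.08, EIF4E2 with 0.998 and 1.50 and SERP1 with 1.00 (just under the minimum) and 1.71 fell outside it.

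The series holds 6 libraries of poly(A)-selected RNA from U2OS, a human osteosarcoma cell line, 1 for each condition, and asks how RNA G-quadruplexes (rG4s) fold in cells. The library of unstressed cells came from cells grown in regular medium and exposed to 8% dimethyl sulfate (DMS) for 5 min, with RT in 150 mM K+. The library of refolded RNA was folded and modified with DMS outside cells in 150 mM K+, also with RT in 150 mM K+, and its DMS dose and time are not given in the sources used here. A refolded library in 150 mM Li+, a library of cells starved for 2 h in Hank's balanced salt solution and then treated with 8% DMS for 5 min, and a pair of libraries without DMS, labelled as reverse transcribed in 150 mM K+ and in 150 mM Na+, served as references. Each side of the comparison is 1 library from 1 cell line, so no test between cells and refolded RNA was possible, no p-value is given, and intervals cover counting error or the variation between transcripts, not that between cultures. Transcripts, sites and positions are not replicates.

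DMS methylates adenine (A) and cytosine (C) on the face that pairs with another base, so only A and C that are free of a partner react, and RT stops there. A high stop count at A or C thus marks a base open to the reagent, while base pairs, bound proteins and other contacts lower it. DMS also reacts with guanine (G) at a nitrogen that does not take part in Watson-Crick pairs, which blocks RT little, but which is needed for the G-quartets of an rG4. Folded rG4s stop RT themselves when K+ is present, at the G where the enzyme meets the structure.

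The listed stops summed to 12999691 in unstressed cells and 21480565 in refolded RNA over all transcripts, and to 8771332 and 12854166 over the matched members. Of the latter, 7546433 and 10243269 lay at A or C. The median depth was 2.35 stops per nucleotide in cells and 3.46 in refolded RNA, and the deepest members were RPLP1, a ribosomal protein mRNA, with 238 in cells, and the glycolytic GAPDH with 194 in refolded RNA. A minimum of 5 stops per nucleotide in both was reached by 299 transcripts. The mesenchymal markers VIM (45404 and 82196 stops in cells and refolded RNA), SPARC, TGFBI and LGALS1 were members and FN1 and COL5A1 were listed below the minimum, whereas COL5A2 had 0 and 6 stops. Of the markers of other cell types, CDH1, KRT20, PTPRC, CD3E and ALB had no listed stop, EPCAM had 9 and 24, and HBB had 51 and 185.

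A and C took a larger part of the stops in cells than in refolded RNA. For each transcript the mean stop count per base was formed for each of the 4 bases, and the A/C share is the part of the sum of these means that A and C hold, which does not depend on base composition. The median share was 83.1% in unstressed cells and 76.7% in refolded RNA. It was 76.6% for RNA refolded in Li+, 72.8% in starved cells, and 50.8% and 50.2% in the libraries without DMS labelled K+ and Na+. Unstressed cells thus stood above both refolded libraries, and starved cells below them. The share was higher in cells in 1260 of 1261 transcripts with a value in both libraries (99.9%), by a median of 6.37 percentage points (95% order-statistic interval over transcripts 6.29 to 6.48), which is a difference of 0.58 in log2 odds. The extent of DMS modification may differ between the libraries by an amount that is not known, and a stronger modification and a more open RNA cannot be told apart in this share.

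**Figure D1:**
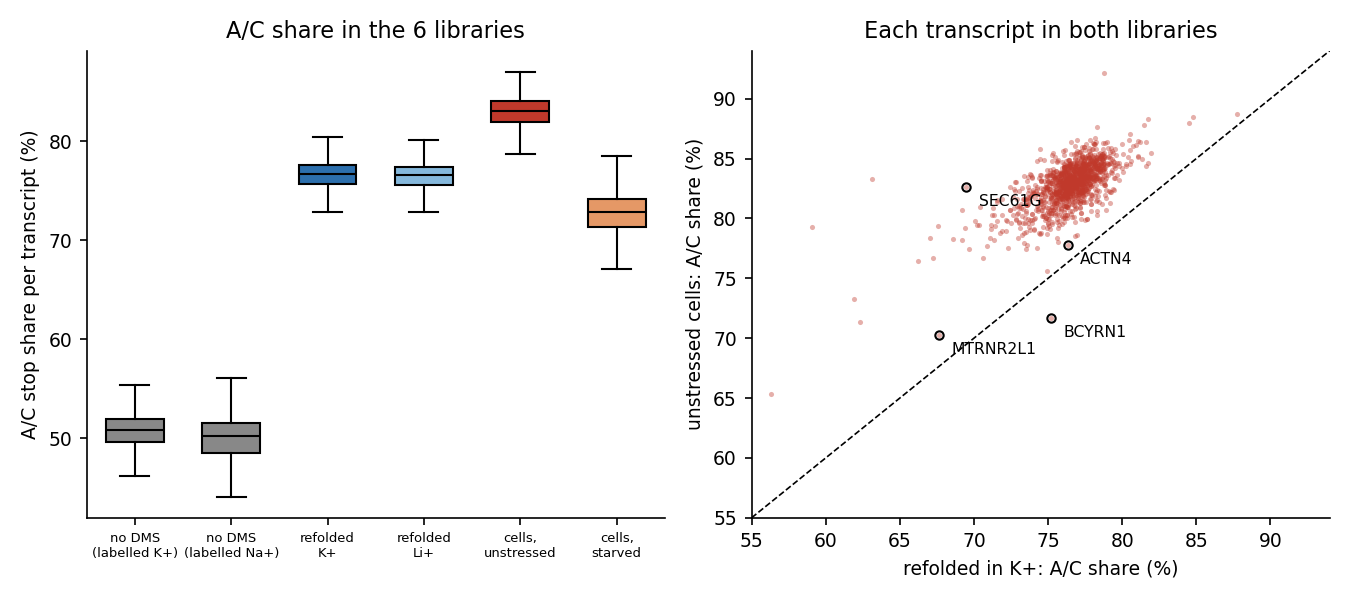
Left, share of the stops at A and C (%) per matched transcript in each of the 6 libraries (box, quartiles with the median; whiskers, 1.5 times the interquartile range or the last value within it; points beyond them not drawn). Right, the same share of each transcript in unstressed cells against RNA refolded in K+, with the line of equality dashed: BCYRN1 (71.7% in cells, 75.2% refolded) is the single transcript under the line.

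The shift was close to uniform over the transcripts, with a middle span (the interquartile range) of 5.49 to 7.32 points. Among the 945 genes with at least 2000 A and C stops in each library, the mRNA of SEC61G, a subunit of the endoplasmic reticulum translocon, differed most, with a share of 82.6% in cells and 69.5% in refolded RNA (1.06 in log2 odds). MAD2L1, of the spindle checkpoint, followed with 86.4% and 76.6%, then COX6C, a subunit of cytochrome c oxidase, with 84.9% and 74.7%. The mitochondrial import factors TIMM17A (85.6% and 76.0%) and TIMM8B (83.0% and 72.8%) and the small nuclear protein ERH (85.2% and 75.5%) completed the 6 highest. BCYRN1, a short noncoding RNA of neurons and tumour cells that ends in a unique stretch behind an Alu-derived domain, went the other way, with 71.7% in cells and 75.2% in refolded RNA (-0.26 in log2 odds). The next lowest differences were those of the actin crosslinker ACTN4 (77.8% and 76.3%), the cochaperone STIP1 (78.5% and 76.8%), the snoRNP protein SNU13 (80.7% and 78.9%) and PRR11 (80.3% and 78.3%), all still higher in cells. In SNU13 a single G held 261 stops in cells and 15 in refolded RNA, and stops at G lower this share. MTRNR2L1 (70.3% and 67.6%) is a nuclear near-copy of mitochondrial ribosomal RNA, so that its reads may belong to either.

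The remaining stops fell at both other bases. The median share at G was 11.9% in cells and 16.1% in refolded RNA, and at U, which DMS hardly modifies, 5.04% and 7.13%. Within A and C, C took a larger part in cells. The mean stop at C was 0.486 of that at A in cells and 0.389 in refolded RNA, and this ratio was higher in cells in 1198 of 1261 transcripts (95%). It was 0.391 in Li+ and 0.357 in starved cells, so it was highest in unstressed cells among the DMS libraries, and 0.628 and 0.667 without DMS.

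The A and C that a folding prediction pairs were relatively more reactive in cells than in refolded RNA. The pairing of each base was predicted with RNAplfold from the sequence alone, with bases called paired at a probability of being unpaired under 0.2 and unpaired at one over 0.8. The deposited ratio, a stop count over the mean of its base in the transcript, was averaged over both classes, and the median log2 ratio of unpaired over paired was 0.70 in cells and 1.19 in refolded RNA. It was 1.09 in Li+ and 0.58 in starved cells, against 0.11 in each library without DMS. The ratio was lower in cells than in refolded RNA in 1146 of 1257 transcripts (91.2%), with a median difference of -0.50 (interval -0.53 to -0.47).

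The normalised stop along the transcripts differed between the libraries at all 4 bases, U included, so the contrast was taken again within short stretches. Here each stop count was divided by the mean of the same base within 75 nt on either side, which is called the local stop below. The median log2 ratio of unpaired over paired was then 0.61 in cells and 0.96 in refolded RNA, 0.92 in Li+, 0.35 in starved cells and close to 0 without DMS. It was lower in cells in 1051 of 1196 transcripts (87.9%), by a median of -0.35 (interval -0.37 to -0.33). The local stop at A with an unpaired probability under 0.1 averaged 0.676 in cells and 0.562 in refolded RNA, and at A with one over 0.9 it averaged 1.06 and 1.16. The corresponding values at C were 0.652 and 0.528, and 1.22 and 1.40. Cells thus had a flatter curve than refolded RNA at both bases, and starved cells the flattest of the DMS libraries.

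**Figure D2:**
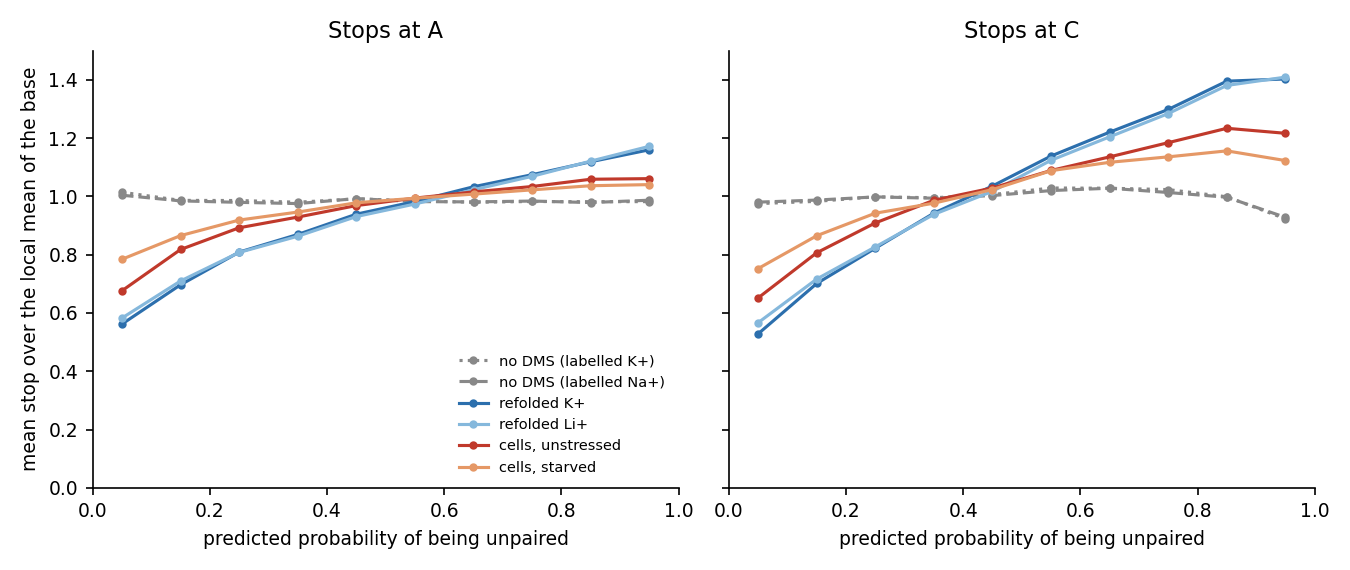
Mean local stop (stop count over the mean of the same base within 75 nt) at A (left) and C (right) in 10 bins of the predicted probability of being unpaired, 1 line per library. Refolded RNA rises from 0.562 to 1.16 at A and from 0.528 to 1.40 at C, unstressed cells from 0.676 to 1.06 and from 0.652 to 1.22, and the libraries without DMS (grey) stay near 1.

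Among the named genes the local contrast of unpaired over paired was 0.21 in cells against 1.07 in refolded RNA in MAD2L1 and 0.73 against 1.62 in PTTG1, the securin mRNA. In GAPDH it was 0.66 and 1.02, in the constitutive chaperone HSPA8 0.46 and 0.98, in the elongation factor mRNA EEF1A1 0.33 and 0.71, and in HNRNPA2B1, an mRNA of an hnRNP, 0.14 and 0.75. These mRNAs all had the lower value in cells. The mRNA of the amyloid precursor APP had a contrast of 0.04 in cells and 0.62 in refolded RNA. BCYRN1 went the other way here too, with 2.77 in cells and 2.09 in refolded RNA, as did PES1, a ribosome biogenesis factor (0.90 and 0.44), MCM5, of the replicative helicase (1.45 and 1.24), FTL, the ferritin light chain mRNA (1.43 and 1.29), APH1A, a subunit of gamma-secretase (1.39 and 1.26), and TIMM8B (0.98 and 0.85). SLC25A1, with 0.99 and 0.94, and RPS2, with 0.59 and 0.57, were higher in cells by less than 0.1. These 8 were the exceptions among the named genes.

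The gene groups had the directions of the whole set. Over all members the median difference in log2 odds of the A/C share was 0.58, and the local contrast was lower in cells in 1051 of 1196. Of the 47 large subunit ribosomal proteins listed, all 47 were members, with a median odds difference of 0.55 and a lower contrast in 44 of 46 (0.53 in cells and 0.89 in refolded RNA). The 32 of 34 small subunit proteins had 0.53 and 29 of 31. For 29 of 37 translation factors the values were 0.53 and 28 of 29, and for 10 of 18 glycolytic enzymes 0.57 and 9 of 10. Of the nuclear-encoded oxidative phosphorylation genes, 55 of 77 were members, with an odds difference of 0.63 and a lower contrast in 50 of 53 (0.38 and 0.94). Proteasome subunits (28 of 31 members) had 0.65 and 26 of 28, cytosolic and mitochondrial chaperones (20 of 23) 0.64 and 20 of 20, and chaperones of the endoplasmic reticulum (12 of 14) 0.58 and 10 of 11. Each of these groups kept the direction of all members in both measures.

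The smaller groups showed the same directions, by smaller amounts in the last 2 of them. Messages of hnRNP proteins (19 of 23 members) had a median odds difference of 0.63 and a lower contrast in 17 of 19, SR splicing factors (7 of 12) 0.68 and 7 of 7, actin, tubulin and vimentin (15 of 19) 0.57 and 14 of 15, and extracellular matrix genes (7 of 26) 0.58 and 7 of 7. Serum-responsive, short-lived mRNAs (5 of 22) had 0.66 and 5 of 5, and noncoding RNAs (11 of 22) 0.60 and 9 of 10. The 3 of 7 mRNAs listed for an iron-responsive element had 0.42, with a contrast of 1.01 in cells and 1.04 in refolded RNA and a lower value in 2 of 3. The 7 of 22 selenoprotein mRNAs, which carry a structured element that recodes a stop codon, had 0.51, with 1.05 and 1.07 and a lower value in 5 of 7. Over the 2 members of each with at least 5 stops per nucleotide in both libraries, the median difference in contrast was positive, at 0.0485 and 0.045. The contrast in these latter groups was thus high in cells as well. With so few members and 1 library a side, nothing particular to them was shown.

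The similarity of the A and C profiles was lower between cells and refolded RNA than between both refolded libraries. Pearson's r per transcript, over positions listed in either library and with all libraries thinned to 1 depth, had a median of 0.34 for cells and RNA refolded in K+, 0.51 for RNA refolded in K+ and Li+, and 0.45 for unstressed and starved cells. With local stops, which were not thinned, the medians were 0.45, 0.69 and 0.46, so depth also differed between these pairs. The value for cells and RNA refolded in K+ depended on the depth and the scale. It was 0.66 over transcripts with at least 5 stops per nucleotide in both libraries, 0.17 by Spearman's rho and -0.0725 on log2(normalised stop + 0.1). These are descriptions across positions of a transcript that share a library and its depth. Ribosomal protein mRNAs, which are among the deepest, had a median r of 0.79 in both subunits, and the highest single values were those of RPL36A (0.97), MTRNR2L1 (0.93), RPS29 (0.92) and UQCRH, of respiratory complex III (0.91). The lowest were negative, at -0.36 for MCM5, -0.34 for PES1, -0.34 for the zinc transporter SLC39A7 and -0.32 for the citrate carrier SLC25A1. These 4 were also negative between both refolded libraries, at -0.24, -0.19, -0.19 and -0.21. In local stops these 4 had an r of 0.25 to 0.34, so the negative sign was not seen in local stops.

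The Gini index, which is 0 when stops are spread evenly over the A and C of a transcript and approaches 1 when few positions hold them, was higher in cells. After thinning to equal depth its median was 0.685 in cells and 0.635 in refolded RNA, with a median difference of 0.033 (interval 0.030 to 0.036), and it was higher in cells in 1012 of 1276 transcripts (79.3%). The median difference was 0.0729 for A alone and 0.0121 for C alone, 0.0142 over transcripts with at least 5 stops per nucleotide in both libraries, and 0.0481 without thinning. EIF4G2, a translation factor related to eIF4G, had 0.743 in cells and 0.471 in refolded RNA, the integrin ITGB1 0.721 and 0.449, the nuclear matrix protein MATR3 0.819 and 0.608, and the transferrin receptor TFRC 0.786 and 0.582. PTTG1 had the lowest difference, with 0.616 and 0.716, followed by RPS18 (0.389 and 0.485), RPS28 (0.395 and 0.487) and RPS19 (0.349 and 0.434). Within windows of 100 nt the median difference was 0.003 (interval 0.000 to 0.006), with 0.383 in cells and 0.376 in refolded RNA and a higher value in cells in 663 of 1250 transcripts (53.0%). The 4 genes with the highest whole-transcript difference had differences of -0.006, 0.002, 0.039 and 0.016 in these windows, while PTTG1 (-0.072), RPS18 (-0.084), RPS28 (-0.084) and RPS19 (-0.072) kept theirs.

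By region, stops in cells lay farther towards the 3′ end at every base. The normalised stop at A and C was lower in cells in 5′ UTRs, with a median log2 ratio of -0.60 (670 transcripts, interval -0.65 to -0.52) and in coding sequences, with -0.27 (1240 transcripts), which was -0.0874 over 289 transcripts with at least 5 stops per nucleotide in both libraries. It was higher by 0.37 in 3′ UTRs (1217 transcripts) and by 0.48 in the last 150 nt. The same ratios at U, which DMS does not mark, were -0.13, -0.20, 0.39 and 0.48, and at G -0.30, -0.32, 0.59 and 0.67. Relative to U in the same region, the log2 ratio of A and C was -0.04 in 5′ UTRs (interval -0.10 to 0.02, 77 transcripts), 0.11 in coding sequences (interval 0.06 to 0.15, 411 transcripts) and 0.03 in 3′ UTRs (interval 0.00 to 0.05, 713 transcripts). These values rested on few transcripts in 5′ UTRs and on how unlisted positions were counted. With those counted as 1 stop, the log2 ratio in 3′ UTRs was 0.32 at A and C, 0.25 at G and 0.0553 at U, and in 5′ UTRs -0.42, -0.28 and -0.16. The direction was the same at U as at A and C in each of these regions, but the size of the part shared with U was not settled. Coverage was not measured apart from the stops, and its part in these differences was not tested.

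**Figure D3:**
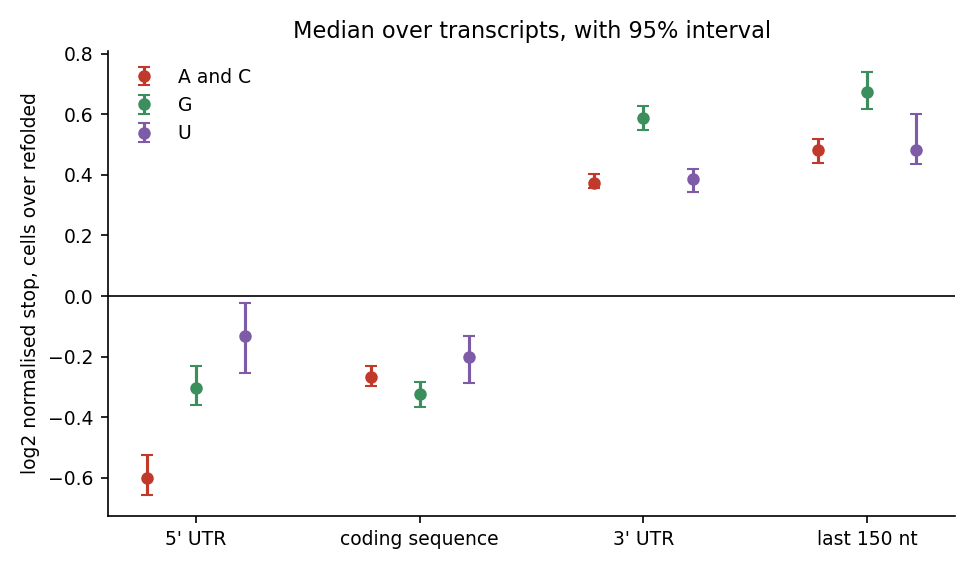
Median log2 ratio of the normalised stop in unstressed cells over RNA refolded in K+ for 5′ UTRs, coding sequences, 3′ UTRs and the last 150 nt, at A and C (red), G (green) and U (purple), with 95% order-statistic intervals over transcripts. All bases lie below 0 in the first 2 regions and above 0 in the last 2.

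In coding sequences the local stop at C by codon position differed between cells and refolded RNA. The local stop at C in the first codon position was higher in cells than in refolded RNA, with a median log2 ratio of 0.15 over 718 transcripts (interval 0.13 to 0.17), and higher in 560 of them (78.0%). In the second position it was -0.02 and in the third -0.10 (interval -0.12 to -0.09), with a higher value in cells in 169 of 718 (23.5%). The median local stops behind this were 1.09, 0.888 and 1.01 in cells for the 3 positions and 0.977, 0.901 and 1.09 in refolded RNA. Starved cells had 1.07, 0.880 and 1.04, and RNA refolded in Li+ had 0.964, 0.899 and 1.10. The libraries without DMS had 0.998, 0.834 and 1.12 (labelled K+) and 0.999, 0.837 and 1.12 (labelled Na+). Both cell libraries thus had their highest value in the first position, and both refolded libraries, like those without DMS, in the third. For A the ratios were 0.00, 0.01 and -0.03, so no comparable frame was seen there.

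The base after a C goes with both its codon position and its stop count. C before U was higher in cells by 0.18 in log2 and C before A lower (-0.12), and the local stops at C without DMS ranged from 0.332 before C to 1.68 before A in the library labelled K+. Within each following base, the first position still lay above the third, with 0.06 against -0.21 before A, 0.12 against -0.06 before C, 0.02 against -0.09 before G and 0.32 against 0.12 before U. The log2 ratio in the second position lay between these values before A, C and U (-0.14, -0.03 and 0.19) and below both before G (-0.17).

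Single A and C positions were compared where 1 library had at least 20 stops and at least 20 would be expected in the other. Of 96859 such positions, 3814 (3.94%) had a normalised stop at least 4-fold higher in cells and 2386 (2.46%) at least 4-fold lower. With local stops, 81254 positions in 1159 transcripts could be compared, of which 758 (0.933%) were at least 4-fold higher and 527 (0.649%) at least 4-fold lower, and 7794 (9.59%) and 5670 (6.98%) at least 2-fold. The positions that were higher in cells were more often predicted to be paired. Of 8968 paired positions, 20.8% were at least 2-fold higher in cells (95% Wilson interval 19.9% to 21.6%) and 6.67% lower, and of 26631 unpaired positions 4.87% were higher (4.61% to 5.13%) and 7.53% lower. A position entered through a high count in either library, while paired positions had low stops on average in both. The part of this choice in these shares was not tested. The 4-fold shares by region were 1.02% higher and 0.775% lower in 5′ UTRs, 0.843% and 0.500% in coding sequences and 1.04% and 0.794% in 3′ UTRs. The local stop sets each stretch to its own mean in each library, so a difference between whole regions cannot appear in it.

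The sequences around the positions with the largest differences are shown as 25 bases of the transcript (GRCh37/hg19), with the compared base in capitals. All 8 positions that stood highest in cells relative to refolded RNA lay in 3′ UTRs, which held 41.4% of all positions compared and 79.7% of those at least 4-fold higher. Of these 8, 3 are given first, followed by 5 of the 8 that stood lowest.
PDIA3, 3′ UTR, chr15:44063640-44063664, plus strand: guguugggggaaAuguugugggggu
MATR3, 3′ UTR, chr5:138666009-138666033, plus strand: acuuguaacuuuCugguuauauacu
KDELR2, 3′ UTR, chr7:6501618-6501642, minus strand: uuaugaauuaggCuuuuugaacauc
HSP90AB1, 5′ UTR, chr6:44214856-44214880, plus strand: gcaguguugggaCugucuggguauc
NONO, coding sequence, chrX:70514196-70514220, plus strand: ucaguaugugucCaacgaacugcug
TUBB, 5′ UTR, chr6:30688240-30688264, plus strand: ccccauacauacCuugaggcgagca
SNRPC, coding sequence, chr6:34730379-34730403, plus strand: ugagaaagacacAcugcaguggaag
ERH, 3′ UTR, chr14:69847209-69847233, minus strand: gguuggggugggCuuggaacacagg

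The A in PDIA3, a protein disulfide isomerase, had 69 stops in cells and 3 in refolded RNA, a normalised ratio of 24.8 (exact conditional interval 8.15 to 123, counting error only) and a local ratio of 8.56. The C in MATR3 had 35 in cells and the C in KDELR2, a retrieval receptor of the endoplasmic reticulum, 46, and neither was listed in refolded RNA. Against the floor of 3 stops for a position that is not listed, these were at least 21.8-fold and 20.3-fold higher by the normalised stop, and at least 6.99-fold and 16-fold by the local stop. Of the others, those in EIF4G2, DHX9, SET and RAD21 had normalised ratios of 21.1 to 23.5.

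The C in the 5′ UTR of HSP90AB1, 65 nt before the start codon, had 13 stops in cells and 215 in refolded RNA, a normalised value 21.3-fold lower in cells, but 2.38-fold lower by the local stop. It also had 191 and 167 stops in the libraries without DMS, so a stop of this size was also seen without DMS. The C of NONO, a paraspeckle protein, had 3 and 60 stops (7.05-fold lower by the local stop), the C of TUBB, 32 nt before the start codon of this tubulin, 5 and 98 (5.42-fold), and the A of SNRPC, of the U1 snRNP, 3 and 54 (7.75-fold). These positions had stops without DMS as well, with 25 and 23 in NONO, 68 and 44 in TUBB and 23 and 18 in SNRPC (labelled K+ and Na+). The normalised stop without DMS, from 0.775 in TUBB to 3.54 in NONO, lay above that in cells at each of them (0.706 in NONO, 0.120 in TUBB and 0.336 in SNRPC). In ERH the C behind a G-rich stretch had 8 stops in cells and 131 in refolded RNA (13.6-fold lower), and 6 in RNA refolded in Li+, 37 and 91 without DMS (labelled K+ and Na+) and 41 in starved cells. A local value could be formed for 11 of the 16 named positions, and 10 of these were at least 4-fold by it. The others of the 8 lowest were in SET, CALR and PKM, all in coding sequences.

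Iron-responsive elements (IREs) gave known structures to compare. An IRE is a hairpin with a bulged C and a loop of 6 bases, CAGUGN, that iron regulatory proteins bind when iron is scarce, which blocks translation of ferritin mRNAs from the 5′ UTR and protects the mRNA of the transferrin receptor from decay through the 3′ UTR. The loop letters alone were in a UTR of 780 of 1245 genes (62.7%), and the loop with 5 pairs below it and the bulged C in 7 genes (0.562%), which held 10 such elements on the transcribed strand. The elements in FTH1, FTL and TFRC are given by their GRCh37/hg19 positions, with the loop in capitals, of which the A at loop position 2 was compared.
FTH1, 5′ UTR, chr11:61735047-61735073, minus strand: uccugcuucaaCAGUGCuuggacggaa
FTL, 5′ UTR, chr19:49468593-49468619, plus strand: ucuugcuucaaCAGUGUuuggacggaa
TFRC element 1, 3′ UTR, chr3:195777851-195777877, minus strand: auuaucggaagCAGUGCcuuccauaau
TFRC element 2, 3′ UTR, chr3:195777447-195777473, minus strand: auuaucgggagCAGUGUcuuccauaau
TFRC element 3, 3′ UTR, chr3:195777382-195777408, minus strand: uguaucggagaCAGUGAucuccauaug
TFRC element 4, 3′ UTR, chr3:195777335-195777361, minus strand: auuaucgggaaCAGUGUuucccauaau

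The loop A of FTL had 280 stops in cells and 502 in refolded RNA, local stops of 3.24 and 4.81, which is 1.48-fold lower in cells (exact conditional interval 1.28 to 1.72, counting error only). In FTH1 it had 79 and 184 stops, local stops of 3.002 and 4.09, and was 1.36-fold lower (1.04 to 1.80). The A of the TFRC elements had 10 and 72 stops in element 1 (3.004-fold lower, 1.54 to 6.53), 9 and 40 in element 2 (2.79-fold, 1.33 to 6.55), 9 and 39 in element 3 (2.53-fold, 1.21 to 5.95) and 13 and 43 in element 4 (1.84-fold, 0.971 to 3.73). The value in cells was thus lower at all 6 loops, with an interval that included 1 only at element 4. Local stops in RNA refolded in Li+ were 1.95 to 5.48 over the 6 loops, and in starved cells 0.954 to 1.59. Without DMS the loop A also stopped RT, with local stops of 1.06 to 2.52 over both libraries. The other bases of the ferritin elements differed in both directions. The last base of the FTH1 loop, a C, had a local stop of 8.03 in cells and 3.93 in refolded RNA. The pair of A just before the loop had 1.68 and 1.38 in cells against 0.873 and 0.613 in refolded RNA in FTL, and 2.28 and 1.97 against 1.48 and 1.01 in FTH1. The bulged C of FTL was lower in cells, with 0.958 against 1.38, as were the A and C 11 to 15 nt after the first base of the loop in both elements, where the C had 0.480 against 0.828 in FTL and 1.16 against 1.29 in FTH1. The bulged C of FTH1 was not listed in either library. Of the other genes with a matching sequence, the loop A in EID1 (4 and 9 stops) and SERBP1 (9 and 18) was 1.48-fold and 1.50-fold lower in cells, both with intervals that included 1, and those in TAF10 and YBX1 were not covered.

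The poly(A) signal AAUAAA, which the cleavage machinery binds before the poly(A) tail is added, had lower local stops in cells. It was in the 3′ UTR of 1002 of 1244 transcripts (80.5%; transcribed strand, overlap with other motifs allowed). Within the last 40 nt the local stop at its first A was 0.433 ± 0.024 in cells and 0.698 ± 0.030 in refolded RNA (SE over 601 sites), a log2 ratio of -0.69, with a lower value in cells at 319 sites and a higher one at 92. The other A of the signal had log2 ratios of -0.37, -0.42, -0.36 and -0.30 from position 2 to position 6. Starved cells had 0.767 at the first A, RNA refolded in Li+ 0.714, and the libraries without DMS 0.931 and 0.902, so unstressed cells had the lowest value of the 6 libraries. Farther from the end of the 3′ UTR the ratio at the first A was -0.51 (649 sites), and in coding sequences -0.23 (194 sites). The lower local value was thus not restricted to the signals near the transcript end. By the normalised stop over all signals in 3′ UTRs, the log2 ratios from the first A to the last were -0.24, -0.06, -0.06, 0.01 and 0.13. Over all A of 3′ UTRs this ratio was 0.41. Unlisted positions counted as 0 and cells were read less deeply, and the part of this in the lower local values was not tested.

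**Figure D4:**
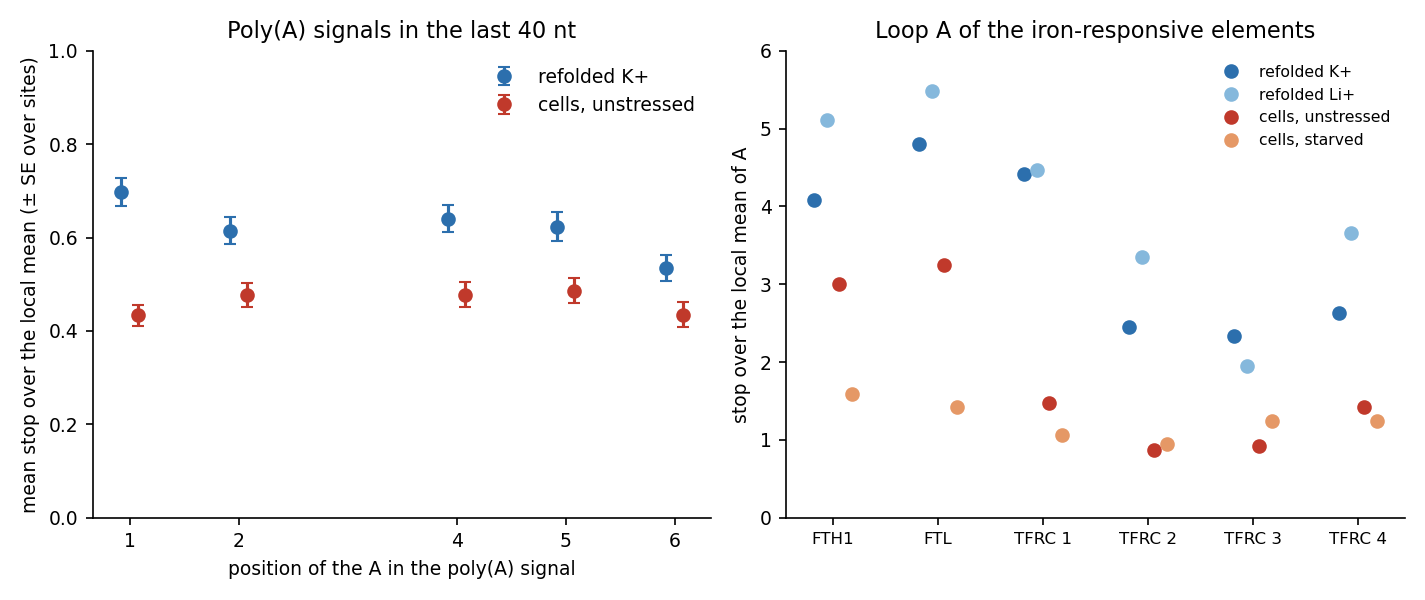
Left, mean local stop at each A of AAUAAA in the last 40 nt of 3′ UTRs in unstressed cells (red) and RNA refolded in K+ (blue), with the SE over sites. Right, local stop at the loop A of the IREs of FTH1, FTL and TFRC in the 4 DMS libraries, 1 point per library: unstressed cells lie below RNA refolded in K+ at all 6 loops.

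Other 3′ UTR motifs were compared in the same way. UGUANAUA, the site of Pumilio proteins, was in 152 of 1244 3′ UTRs (12.2%), and its first A had a local stop of 0.809 ± 0.051 in cells and 1.01 ± 0.053 in refolded RNA (SE over 147 sites), lower in cells at 88 and higher at 49 (log2 ratio -0.31). Its A at positions 6 and 8 had -0.14 and -0.13. By the normalised stop the log2 ratio was 0.10 at the first A, higher in cells at 72 sites and lower at 70. It was 0.30 and 0.26 at positions 6 and 8, against 0.41 over all A of 3′ UTRs. The A-rich and U-rich decay motif UAUUUAU had local log2 ratios of 0.12 and -0.06 at its 2 A. In GGACU, a sequence context of N6-methyladenosine, the A had -0.12 and the C 0.16. CUACCUC, the complement of the let-7 seed, had 22 to 36 sites, with 0.59 at the first C (0.640 ± 0.159 and 0.427 ± 0.117) and -0.10 to 0.17 at the other bases, and the SEs overlapped at each of them.

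Strong stops at G, which rG4s give in K+, were weaker in cells where the sequence held 4 runs of 3 G. Of 910 G with a normalised stop of at least 10 in refolded RNA, 225 (24.7%) were at least 2-fold lower in cells and 70 (7.69%) at least 2-fold higher. In the 45 nt ending at the stop, 108 had 4 runs of 3 G with loops of up to 7 nt, and their median normalised stop was 7.54 in cells and 18.0 in refolded RNA, a median log2 ratio of -1.33, with 66.7% at least 2-fold lower (Wilson interval 57.3% to 74.9%). The 134 with only runs of 2 G had -0.74, but 0.0933 over the 24 of them in transcripts with at least 5 stops per nucleotide in both libraries, and the 668 with no such motif had -0.10. Of those 668 sites, 142 were not listed in cells and entered at the floor of 3 stops, as did 12 of the 108, and 84 of the 668 lay in DCUN1D5 alone. Having been chosen for a high value in refolded RNA, these sites were bound to be lower in cells on average, and sites chosen in cells were bound to be higher. Of 2623 G with a normalised stop of at least 10 in cells, 1817 (69.3%) were at least 2-fold higher there, and the 41 of them with 4 runs of 3 G had a median log2 ratio of -0.29 (interval -0.78 to 0.13). Sites were therefore also chosen in the libraries without DMS, which neither side used. Of 1142 such sites, 231 (20.2%) were at least 2-fold lower in cells. The median log2 ratio was -0.95 for 169 sites with 4 runs of 3 G (47.3% at least 2-fold lower, interval 39.95% to 54.8%), -0.05 for 449 with runs of 2 G only (interval -0.14 to 0.09) and -0.17 for 524 with neither. The middle value depended on depth and threshold. In transcripts with at least 5 stops per nucleotide in both libraries the medians were -1.14, -0.27 (interval -0.46 to -0.08, 92 sites) and -0.20, and for normalised stops of at least 20 they were -0.83, -0.32 (-0.50 to -0.19, 364 sites) and -0.34. Of the 1142 sites, 36, 163 and 37 of the 3 kinds were not listed in cells and entered at the floor. All these sites were limited to transcripts where a stop at the threshold would give at least 10 counts in both libraries, so a higher threshold admitted more transcripts.

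**Figure D5:**
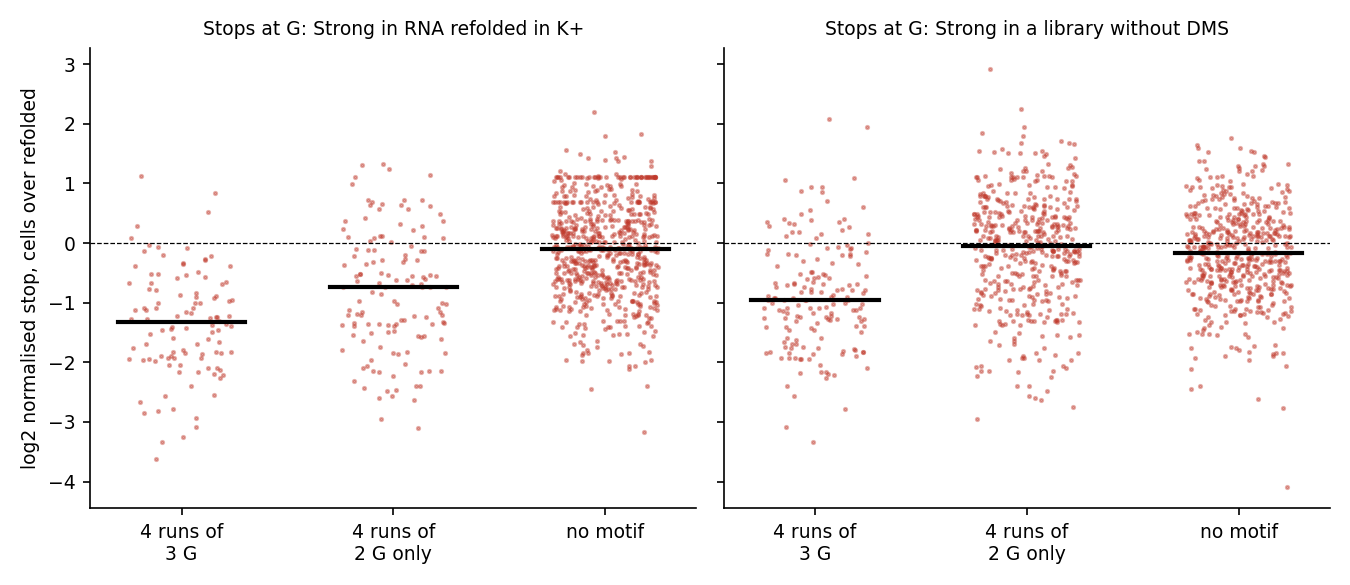
Log2 ratio of the normalised stop in unstressed cells over RNA refolded in K+ at single strong G stops, by the motif in the 45 nt ending there, with the median as a bar. Left, sites chosen in RNA refolded in K+ (medians -1.33, -0.74 and -0.10), and right, sites chosen in a library without DMS (medians -0.95, -0.05 and -0.17); points in a row are sites of 1 transcript not listed in cells, drawn at the floor of 3 stops.

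Among the sites with 4 runs of 3 G, the median normalised stop was 62.4 in the library without DMS labelled Na+ and 3.28 in the one labelled K+. Stops of this kind need K+ in the RT reaction, so these values go against the labels of both libraries, which were used here as references and to choose sites. The 6 G lowest in cells relative to refolded RNA and the one highest are shown by 25 bases of the transcript, with the stop in capitals.
NUCKS1, 3′ UTR, chr1:205686740-205686764, minus strand: ggugggcaauggGguuaccugaccu
RPS9, coding sequence, chr19:54711404-54711428, plus strand: ggguggggcuggGgcuggagacgac
MALAT1, noncoding, chr11:65270073-65270097, plus strand: ugaugagggaggGgaaacuuuuuuu
SLC39A1, 3′ UTR, chr1:153931650-153931674, minus strand: gcugugcauaggGacauauucuuua
MFGE8, 3′ UTR, chr15:89441974-89441998, minus strand: gugggcguuuggGgcccucuaugcu
ERH, 3′ UTR, chr14:69847211-69847235, minus strand: gggguuggggugGgcuuggaacaca
SNU13, 3′ UTR, chr22:42070242-42070266, minus strand: ggugagccauggGgcaguugaccug

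The G in NUCKS1, a chromatin protein, had 3 stops in cells and 93 in refolded RNA, 12.3-fold lower by the normalised stop (interval 4.10 to 60.96, counting error only), and 26 in Li+, 19 in starved cells and 1008 without DMS in the library labelled Na+. In RPS9 the counts were 14 and 206 (10.1-fold lower), in the zinc transporter SLC39A1 4 and 60 (8.64-fold), in MFGE8, a milk fat globule protein, 3 and 30 (8.45-fold), and in ERH, 2 nt from the C named above, 18 and 306 (7.72-fold). MALAT1, a nuclear noncoding RNA, had none listed in cells and 46 in refolded RNA, at least 8.98-fold lower against the floor. The G in SNU13 had 261 stops in cells and 15 in refolded RNA, 17.8-fold higher (10.6 to 32.3), with 86 in starved cells and 31 and 36 without DMS. The next highest were in FLNA, CLTC and THBS1, with normalised ratios of 12.4, 11.5 and 10.96, and in SF1 (24 stops in cells) and PDIA3 (20), which were not listed in refolded RNA and were at least 12.1-fold and 10.7-fold higher against the floor. All lay in 3′ UTRs, where the median log2 ratio at G over transcripts was 0.59, with a higher value in cells in 977 of 1028.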

How the data were processed

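Deposited per nucleotide were 2 values. The authors removed duplicate reads with SAMtools, mapped the rest with Bowtie to an hg19 transcriptome without mismatch and at unique positions, and deposited the count of RT stops, listed from 3 up. The deposited ratio is that count over the mean count of the same base in the transcript, and listed counts over ratios therefore gave base means that include unlisted stops. Listed positions were matched to GENCODE release 44 on GRCh37 (at least 97% identity over at least 80%). Positions not listed counted as 0, or as 3 where a bound was needed. Deeper libraries were thinned with a fixed seed for the Gini index and for correlations, except correlations of local stops. Pairing came from ViennaRNA RNAplfold 2.7.2 (window 150, span 100), and values were computed with Python 3.11.15, numpy 2.4.6, pandas 2.3.3 and scipy 1.17.1. Local means needed at least 10 positions of the base and a mean of at least 2 stops in both libraries. Steps were tested on simulated counts.

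Members, gene lists and tests were chosen with earlier results of these data known, and local stops, 100-nt windows, comparison with U and the choice of G sites without DMS were added after seeing the data. Named genes were those with the highest and lowest A/C odds difference (6 each), Gini difference and correlation (4 each) among genes with at least 2000 A and C stops in each library, the 2 of each list with most listed stops over both libraries, the 8 positions and 6 G stops highest and lowest in cells, and ACTB, APP, APH1A, HIRA, LMNB1, FTH1, FTL and TFRC. HIRA was not a member. The values of 1 of the 8 positions highest in cells are not reported here, so those given are not ranked.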

Additional observations from a re-analysis of the deposited data

How the results depend on the processing

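No paired analysis was possible because each condition has 1 library. Of 110 values recomputed under alternatives (81 planned, 29 added after seeing the data), 63 stayed within the spread, 41 moved and 6 changed sign, and the causes were not tested. With at least 5 stops per nucleotide in both libraries the odds difference was 0.59, the Gini difference 0.0142, the correlation 0.66, the pairing difference -0.43, the regions -0.40, -0.0874 and 0.25 (5′ UTR, coding sequence, 3′ UTR), the 2-G stops 0.0933 (a change of sign) and the endoplasmic reticulum chaperones 0.42. Listed stops alone gave an odds difference of 0.84. The Gini difference was 0.0729 for A, 0.0121 for C, 0.0481 without thinning and 0.00309 in 100-nt windows. The correlation was 0.45 for A, 0.21 for C, 0.17 by Spearman's rho, -0.0725 on log2(normalised stop + 0.1) and 0.45 in local stops. The pairing difference was -0.59 for A, -0.45 for C, -0.58 with window 300 and span 250, and -0.35 in local stops. Counting unlisted positions as 1 gave -0.42, -0.23 and 0.32 by region, and dividing by U -0.0422, 0.109 (a change of sign) and 0.0282. Strong G stops from 5 and 20 up gave -0.97 and -1.68 (3 G), -0.50 and -1.40 (2 G) and, from 5, -0.20 (no motif), and sites chosen without DMS -0.95 and -0.0512. Positions higher and lower in cells numbered 20110 and 12941 at 2-fold, 475 and 248 at 8-fold, 711 and 353 from 50 stops, and 758 and 527 in local stops. In local stops CUACCUC changed sign at positions 4, 5 and 7 (-0.10, -0.0516 and 0.17). Depth limits single positions: a position not listed can hold up to 2 stops.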

Other observations

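The genes that the series names for rG4s or as a control were in range of the other members. The A/C share of APP was 83.5% in cells and 74.9% in refolded RNA, of the gamma-secretase subunit APH1A 80.7% and 75.1%, of the lamin LMNB1 85.3% and 77.1%, and of the control ACTB 77.9% and 73.4%. The profile correlation between cells and refolded RNA was 0.26 in APP, -0.11 in APH1A, -0.02 in LMNB1 and 0.70 in ACTB, and in local stops 0.50, 0.38, 0.34 and 0.78. Between both refolded libraries it was 0.21, -0.03, 0.09 and 0.92 in these genes.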
